A study of Mus musculus with 64 samples.

Results

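The mitochondrial ribosomal protein genes, whose symbols begin with Mrpl or Mrps, were followed across cultured mouse natural killer (NK) cells. A gene was taken as a member if its symbol was Mrpl or Mrps followed by a number, with or without a letter, and if it averaged at least 5 counts in 1e+06 (CPM) over the 64 libraries. The table held 78 such symbols among 36273 genes, and 76 of them met the minimum. The 2 below it were Mrps18b at a mean of 1.70 CPM and Mrpl53, with a count in 1 library. The members nearest to the minimum from above were Mrps36 at 5.65 CPM and Mrpl23 at 8.90 CPM. All 76 members were among the 10723 genes tested.

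Spleen NK cells were grown for 5 days in low-dose IL-2 and IL15:IL15Ra and then left untreated, given prostaglandin E2 (PGE2, 100 ng/ml), or given conditioned medium (CM) from control BRAFV600E cells, tumour cells that make PGE2. The unstimulated arm lasted 5 h. In the stimulated arm, 1 h of treatment came before 4 h of triggering through NK1.1, an activating receptor of NK cells. Bulk 3' mRNA sequencing was run on 3 genotypes. WT cells were from C57BL/6J mice. EP2KO cells were Ptger2-/-Ptger4fl/fl, so they lacked the PGE2 receptor EP2 and carried floxed alleles of the gene for the receptor EP4. EP2/EP4KO cells were GzmbCrePtger2-/-Ptger4fl/fl, in which Cre is expressed with granzyme B, so that EP4 is lost only in cells where that Cre has acted. The Cre was thus carried by the EP2/EP4KO cells and by neither other genotype. Each of the 18 groups had 4 libraries in WT and EP2KO and 3 in EP2/EP4KO, except for unstimulated WT with PGE2, which had 2. No age of the mice is given in the sources used here. The labels do not say whether replicates came from separate animals, so a p-value here reflects sample-to-sample spread that may be technical only. Libraries with the same replicate number tended to vary together. The counts of calls below do not take this into account. A fit with a replicate block, which does, gave more calls in several comparisons, as described at the end.

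Mitochondria carry their own ribosome, which makes the few membrane proteins of the respiratory chain that mitochondrial DNA encodes. All of its proteins are encoded in the nucleus, made in the cytosol and imported. Some descend from the proteins of bacterial ribosomes and others are found in mitochondria alone. Activated lymphocytes build up translation and mitochondrial capacity as they enter growth, and PGE2 restrains NK cells through EP2 and EP4, which both raise cyclic AMP.

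Library totals ran from 753973 to 1693750 counts, with a median of 1256163, so that 1 CPM is close to 1 count. The 8 NK cell marker genes were all tested and took 0.299% to 0.927% of a library's counts. The lists for other cells reached at most 0.0123% for B cells, 0.0104% for T cells, 0.0226% for macrophages and dendritic cells, 0.085% for neutrophils, 0.00289% for erythroid cells and 0.000798% for melanoma cells. One group was uneven. The 4 untreated stimulated WT libraries gave the members 0.452%, 0.361%, 0.546% and 0.581% of counts, and gave the cytosolic ribosomal proteins 8.97%, 6.81%, 11.1% and 12.1%. Replicate 2 was lowest in both and had the highest share of counts from mitochondrial DNA of the 4, at 10.3%. Counts of called members that use this group are given with and without replicate 2 where they moved. The other gene lists and the counts of member signs were not refitted without it.

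Levels of the members were moderate and spread over a wide range. Their mean CPM had a median of 53.3, against 27.2 for all tested genes. The most abundant were Mrpl33 (mean 260.2 CPM), Mrpl52 (218.1), Mrps14 (161.4), Mrpl18 (153.2) and Mrpl30 (135.6), and 9 members passed 100 CPM. The least abundant after Mrps36 and Mrpl23 were Mrps2 (14.2), Mrps27 (15.97) and Mrps22 (20.9), and 4 members stayed under 20 CPM. A 3' tag is counted by transcript end, so these levels are not divided by gene length. Of the 5 most abundant members, Mrpl33 had group means of 223.6 to 290.2 normalised CPM, Mrpl52 of 192.9 to 251.8, Mrps14 of 131.3 to 191.9 and Mrpl18 of 125.5 to 198.6. Mrpl30 lay between 119.9 ± 5.01 (SD, n = 4) in untreated stimulated EP2KO and 153.8 ± 4.93 (n = 4) in untreated unstimulated WT. The libraries of a group could be far apart, as for Mrpl33 at 223.6 ± 87.3 (n = 4) in untreated stimulated WT.

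The members made up 25 proteins of the small subunit, 50 of the large subunit and 1, Mrps36, that belongs to neither. Mrps36 was named as a ribosomal protein but is known as a part of the 2-oxoglutarate dehydrogenase complex, and its group means lay between 2.35 ± 0.93 CPM (SD, n = 3) in unstimulated EP2/EP4KO with CM and 9.25 ± 3.18 (n = 3) in stimulated EP2/EP4KO with PGE2. The Mrps18 genes encode related proteins, of which Mrps18a sits in the large subunit despite its name, as Mrps30 does. Mrps18c ranged over groups from 90.4 to 145.6 CPM and Mrps18a from 31.9 to 70.0 CPM, while Mrps18b stayed below the minimum. Mrpl12 had its lowest group mean in unstimulated WT with CM (65.9 ± 8.34 CPM, n = 4) and its highest in stimulated EP2/EP4KO with PGE2 (170.7 ± 37.5, n = 3). Narrower ranges were seen for Mrps12 (63.6 to 93.9 CPM), Mrpl45 (52.8 to 79.7), Mrps30 (37.4 to 66.4) and Mrpl44 (21.9 to 34.4). The counts of small-subunit members divided by those of large-subunit members lay between 0.396 and 0.442 in every library.

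The members lay on 17 chromosomes, with 11 of them on chromosome 11 (GENCODE M21, GRCm38). Of the 76, 26 (34.2%) shared exon sequence with a gene on the opposite strand, against 32.1% of tested protein-coding genes. In a count that overlaps with the first, 17 (22.4%) had a protein-coding gene starting within 1000 bases in the opposite direction, against 11.5% of tested protein-coding genes. Whether counting used strand is not given in the sources used here, so reads of overlapping genes may be shared.

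Promoter sequences of 5 members are shown because these genes carry large responses described below. Each window runs from 250 bases before to 50 after the RefSeq start (GRCm38.p6), 5′ to 3′ on the gene's strand, with capitals marking a match to one of the motifs searched. Mrps6 had the largest rise after stimulation and Mrpl14 one of the larger falls in all 3 genotypes, and both were chosen after their values were seen. Mrpl47, Mrpl55 and Mrpl17 had the largest changes among the members called with PGE2 in stimulated WT.
Mrps6, chr16:92058086-92058385, plus strand: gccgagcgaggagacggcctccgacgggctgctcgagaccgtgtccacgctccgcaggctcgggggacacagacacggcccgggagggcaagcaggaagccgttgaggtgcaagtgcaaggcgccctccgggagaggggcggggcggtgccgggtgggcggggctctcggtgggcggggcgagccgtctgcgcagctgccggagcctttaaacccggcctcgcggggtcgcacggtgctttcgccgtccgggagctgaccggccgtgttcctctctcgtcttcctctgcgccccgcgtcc
Mrpl14, chr17:45686099-45686398, plus strand: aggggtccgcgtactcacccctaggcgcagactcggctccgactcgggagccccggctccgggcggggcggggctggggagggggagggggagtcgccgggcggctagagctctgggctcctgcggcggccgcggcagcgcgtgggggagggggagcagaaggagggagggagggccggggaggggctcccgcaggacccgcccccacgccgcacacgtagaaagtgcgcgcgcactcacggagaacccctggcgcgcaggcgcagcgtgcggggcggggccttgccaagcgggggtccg
Mrpl47, chr3:32736706-32737005, minus strand: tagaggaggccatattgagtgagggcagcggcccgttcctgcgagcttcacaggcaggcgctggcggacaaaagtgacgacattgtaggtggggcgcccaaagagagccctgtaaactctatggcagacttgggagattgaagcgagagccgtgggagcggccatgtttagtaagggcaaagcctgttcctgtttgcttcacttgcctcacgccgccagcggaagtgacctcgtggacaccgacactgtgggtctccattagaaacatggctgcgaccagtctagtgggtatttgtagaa
Mrpl55, chr11:59202236-59202535, plus strand: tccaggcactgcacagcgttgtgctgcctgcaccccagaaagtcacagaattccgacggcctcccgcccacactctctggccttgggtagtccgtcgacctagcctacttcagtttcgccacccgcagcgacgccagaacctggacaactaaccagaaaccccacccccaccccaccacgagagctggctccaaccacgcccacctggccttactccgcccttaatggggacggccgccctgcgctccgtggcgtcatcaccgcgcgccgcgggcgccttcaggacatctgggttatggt
Mrpl17, chr7:105811038-105811337, minus strand: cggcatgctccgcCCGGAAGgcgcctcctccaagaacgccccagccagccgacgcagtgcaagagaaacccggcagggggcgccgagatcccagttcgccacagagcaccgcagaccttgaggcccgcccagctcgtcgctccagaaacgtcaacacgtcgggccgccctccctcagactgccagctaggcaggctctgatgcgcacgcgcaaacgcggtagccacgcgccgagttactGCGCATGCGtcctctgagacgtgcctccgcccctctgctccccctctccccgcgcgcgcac
Only the Mrpl17 window of these 5 held a motif: CCGGAAG, bound by GABPA and other ETS factors, and GCGCATGCG, bound by NRF1, a regulator of nuclear genes for mitochondria. RefSeq windows were found for 67 members, 73 windows in all. On either strand, CCGGAAG was in 32.9% of these windows against 20% of the 10165 windows of tested genes, GCGCATGCG in 8.22% against 3.99%, and the YY1 motif AAGATGGCG in 11% against 3.47%. The E-box CACGTG, bound by Myc among others, was in 9.59% against 10.3%, and the cyclic AMP response element TGACGTCA in 2.74% against 3.35%. Windows rather than genes were counted, so a gene with several windows, such as Mrpl2 for the E-box, weighed more. The differences from tested genes were not tested. A match describes the letters of the window and no binding was measured.

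After stimulation through NK1.1, members of untreated cells were called in both directions, and most were not called. In WT, 12 of 76 were higher, 13 lower and 51 not called (edgeR's quasi-likelihood test, adjusted p under 0.05). The call share was 32.9%, against 42% of all tested genes. The median log2 fold change of the members was -0.01, against 0.01 over all genes. In EP2KO 16 were higher and 3 lower, where 33.3% of all genes were called, and in EP2/EP4KO 16 were higher and 5 lower, where 30.2% were. The medians there were 0.11 and 0.15. The member call shares, both directions together, were 25% and 27.6% there. Of all genes in WT, 23% were higher and 19.1% lower. The same shares were 18.4% and 15% for EP2KO and 16.4% and 13.8% for EP2/EP4KO. Whether the members differed from these shares was not tested.

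Mrps6, a small-subunit protein that has a bacterial counterpart, had the largest rise in every genotype. In WT it stood at 53.8, 40.7, 53.4 and 51.5 normalised CPM without stimulation and at 102.1, 87.7, 113.4 and 120.7 after it. In EP2KO it went from 48.5, 45.4, 49.7 and 49.6 to 103.8, 92.0, 117.0 and 104.9, and in EP2/EP4KO from 41.5, 40.8 and 45.2 to 125.5, 116.3 and 94.9. No stimulated library overlapped an unstimulated one. The log2 fold change was 1.09 ± 0.14 (SE, adjusted p = 2.62e-09) in WT, 1.11 ± 0.14 in EP2KO and 1.40 ± 0.16 in EP2/EP4KO. Mrps6 lies at chr16:92058270-92112227 and shares exon sequence on its own strand with Slc5a3, a sodium and inositol transporter gene, which rose by 2.71 ± 0.32 in WT. How reads were divided between these genes was not tested.

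Of the other risers, Mrpl38, a large-subunit protein found in mitochondria alone, went in WT from 32.0, 24.7, 25.7 and 31.6 CPM to 53.3, 46.0, 74.1 and 47.5 (log2 fold change 0.94 ± 0.19, adjusted p = 4.46e-05). Mrps5, which lines the path of the messenger RNA on the small subunit, went from 55.2, 67.0, 55.3 and 44.9 CPM to 82.3, 76.955, 109.8 and 102.8 (0.73 ± 0.15, adjusted p = 4.36e-05). Mrpl15, a large-subunit protein of bacterial descent, went from 114.8, 118.0, 77.2 and 103.0 to 144.7, 143.8, 176.5 and 194.7 (0.67 ± 0.14). For these genes too the WT groups did not overlap. Mrpl47, which lies near the exit of the peptide tunnel, rose by 0.69 ± 0.21, and Mrpl16 and Mrpl19 by 0.62 ± 0.15 and 0.59 ± 0.16. Mrpl12, the protein of the flexible stalk that recruits translation factors, rose by 0.48 ± 0.16, with overlap between the groups. Mrpl50, Mrpl3, Mrpl21 and Mrpl32 rose by 0.62, 0.50, 0.45 and 0.45. The 4 most abundant members outside the calls were Mrpl33 at -0.38 ± 0.20, Mrpl52 at -0.21 ± 0.15, Mrps14 at -0.11 ± 0.21 and Mrpl30 at -0.25 ± 0.15.

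Mrpl14, a protein of the face where the subunits meet, was among the largest fallers in all 3 genotypes. In WT it went from 87.9, 62.2, 65.7 and 66.5 CPM to 38.1, 16.5, 54.9 and 50.6, in EP2KO from 44.5, 53.2, 83.4 and 70.6 to 28.6, 26.6, 33.8 and 52.8, and in EP2/EP4KO from 51.4, 63.8 and 51.9 to 37.9, 36.3 and 33.3. The WT and EP2/EP4KO groups did not overlap, while those of EP2KO did. The log2 fold changes were -0.84 ± 0.20 (adjusted p = 0.000593), -0.83 ± 0.21 (0.00109) and -0.63 ± 0.24 (0.0335), in that order, by edgeR. Mrpl58, the peptidyl-tRNA hydrolase that frees stalled chains and is also built into the large subunit, went in WT from 162.1, 114.0, 116.2 and 136.2 CPM to 73.1, 60.4, 97.0 and 91.9 (-0.72 ± 0.18), and fell by 0.55 and 0.63 on the log2 scale in EP2KO and EP2/EP4KO. Mrpl9 was lower in each genotype as well, by 0.58, 0.44 and 0.59.

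Mrpl34 had the largest fall in WT, from 103.2, 65.4, 91.5 and 74.8 CPM to 45.7, 30.9, 48.5 and 56.1 (-0.89 ± 0.19, adjusted p = 0.000108 by edgeR), and was lower in EP2/EP4KO by 0.69 ± 0.21. In EP2KO its log2 fold change was -0.38 and did not pass the test. Mrpl49 and Mrps16 fell in WT by 0.79 ± 0.25 and 0.66 ± 0.17, with libraries that overlapped, and Mrps34, Mrps18c and Mrpl10 by 0.59, 0.55 and 0.52. Several fallers have an antisense neighbour with exon overlap that rose in WT: Tcp1, a chaperonin subunit gene, by 1.00 ± 0.16 opposite Mrpl18, and Syvn1, a ubiquitin ligase gene of the endoplasmic reticulum, by 0.98 ± 0.24 opposite Mrpl49. Mapk8ip3 rose by 0.96 ± 0.26 opposite Mrps34. These neighbours were picked after their values were seen, and how reads were shared was not tested. The antisense neighbours of Mrpl9, Mrpl10, Mrpl14 and Mrpl58 had no tested value.

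**Figure D1:**
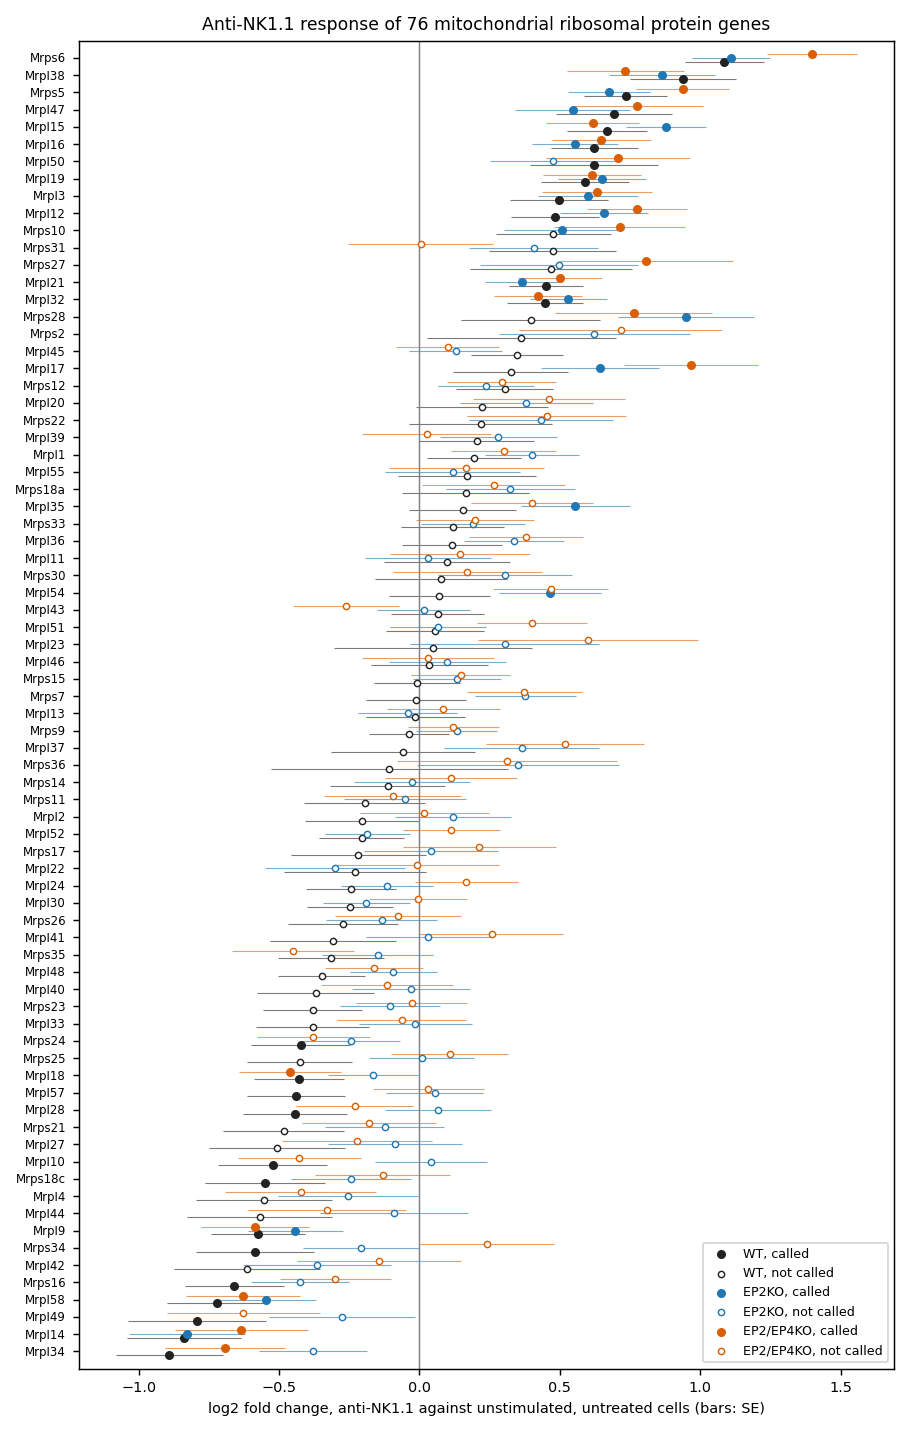
Log2 fold change (x axis, with SE bars) after anti-NK1.1 in untreated cells for each of the 76 members (y axis, ordered by the WT value) in WT, EP2KO and EP2/EP4KO; filled points passed an adjusted p under 0.05. Mrps6 is at the top with 1.09 in WT, Mrpl34 at the bottom with -0.89, and no member was called in opposite directions.

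Across genotypes, which share no library in this comparison, 11 members were higher in all 3: Mrpl3, Mrpl12, Mrpl15, Mrpl16, Mrpl19, Mrpl21, Mrpl32, Mrpl38, Mrpl47, Mrps5 and Mrps6. Mrpl9, Mrpl14 and Mrpl58 were lower in all 3. With members that passed no test included, 58 had the same sign in each genotype, 35 positive and 23 negative, and 0 were called in opposite directions. The log2 fold changes of the 76 members correlated across genes at r = 0.906 between WT and EP2KO, 0.874 between WT and EP2/EP4KO and 0.892 between EP2KO and EP2/EP4KO, a description over genes that are not independent. The same counts and correlations were not made over all tested genes. Of those, 42%, 33.3% and 30.2% were called in WT, EP2KO and EP2/EP4KO, so whether the agreement is particular to the members was not tested. Among members outside the WT calls, Mrps28 rose by 0.95 ± 0.24 in EP2KO and by 0.76 ± 0.28 in EP2/EP4KO, and Mrpl17 by 0.64 ± 0.21 and 0.97 ± 0.24. Mrps27 rose in EP2/EP4KO by 0.81 ± 0.31. Of the 12 WT risers, 11 were called higher in EP2KO and all 12 in EP2/EP4KO. Of the 13 WT fallers, 3 and 5 were called lower there.

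The difference between genotypes in the stimulation effect was tested directly. It was called for 0 members and 0% of genes for EP2KO minus WT, with 2 members at an unadjusted p under 0.05 and 0 by DESeq2. The member differences had a median of 0.17, against -0.025 over all genes, and were positive for 62 of 76. For EP2/EP4KO minus EP2KO it was likewise 0 members and 0% of genes, with 0 members at an unadjusted p under 0.05 and 0 by DESeq2, and a median of 0.01. In untreated unstimulated cells, EP2KO against WT gave 0 members where 0.0653% of genes were called, with 4 members at an unadjusted p under 0.05, and EP2/EP4KO against EP2KO gave 0 where 0.056% were called, with 3 members. DESeq2 called 0 members in both. The member median for EP2KO against WT was -0.12, against 0.0037 over all genes. For EP2/EP4KO against EP2KO it was 0.05, against -0.0023. The same unstimulated libraries enter the stimulation differences above, so the baseline and stimulation values are not independent.

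The balance of risers and fallers in WT depended on the scaling and on 2 libraries. Scaling by total counts alone moved the median of all genes to -0.12 and gave 9 higher and 27 lower, and upper quartile scaling gave 10 higher and 22 lower. Total counts alone gave 11 higher and 8 lower in EP2KO and 10 and 11 in EP2/EP4KO, where it moved the all-gene medians to -0.14 and -0.16 and turned the member medians to -0.05 and -0.02. Upper quartile scaling gave 12 and 4 in EP2KO and 12 and 7 in EP2/EP4KO. Without untreated stimulated replicate 2 the WT counts were 15 higher and 6 lower, and without replicate 4 they were 6 and 24. Under each of these settings and the others tried, all 25 WT members kept their sign, and 12 of them, 6 risers and 6 fallers, stayed called throughout.

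Risers and fallers were found in most structural classes. Among the 30 large-subunit proteins of bacterial descent, 8 rose and 6 fell in WT, and among the 20 large-subunit proteins found in mitochondria alone, 2 rose and 3 fell. In the small subunit, 2 rose and 3 fell of 16 with bacterial descent, and 0 rose and 1 fell of 9 without it. The difference between the classes was not tested.

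Genes that work beside the mitochondrial ribosome were read from lists of their own. All 20 nucleolar genes for building cytosolic ribosomes were higher in stimulated WT, with a median log2 fold change of 1.58. Of 19 tested genes for mitochondrial chaperones and protein import, 12 were higher and 1 lower (median 0.55), among them Hspa9, the chaperone that pulls proteins into the matrix (1.94 ± 0.18), and Hspd1, which folds them there (1.26 ± 0.12). Of 24 genes for assembly and ribosomal RNA modification, 7 were higher, such as the GTPase Noa1 (1.31 ± 0.22), and 2 lower, such as the ribosome binding factor Rbfa (-1.04 ± 0.24). Of 15 translation factors and regulators of mitochondrial messenger RNA, 3 were higher, led by Lrpprc, which stabilises those messengers (1.44 ± 0.22), and 2 were lower. Tufm, the elongation factor, was at 0.16 ± 0.23 and was not called.

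Ribosomal proteins without an Mrp name split too: of 5, Ptcd3 rose by 1.22 ± 0.20 and Dap3, a GTP-binding small-subunit protein, fell by 0.74 ± 0.17. Of 9 genes for mitochondrial DNA transcription and maintenance, 3 were higher and 0 lower, among them Polrmt, the mitochondrial RNA polymerase (0.99 ± 0.35), and Tfam, which packs and activates mitochondrial DNA (0.36 ± 0.14). Of 16 mitochondrial aminoacyl-tRNA synthetases, which charge transfer RNAs, 3 were higher and 2 lower. Of 9 nuclear regulators, 4 were higher and 1 lower, with the coactivator Pprc1 at 2.04 ± 0.28, Ppargc1a at -2.59 ± 0.42 and Myc at 1.43 ± 0.19. Of 10 tested genes of mitochondrial DNA, 1 was higher and 1 lower.

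Larger families that these genes serve were read in the same way. Of 82 cytosolic ribosomal proteins, 1 was higher and 3 lower in stimulated WT (median -0.23), and of 75 nuclear-encoded respiratory chain genes, 2 were higher and 22 lower (median -0.31). In EP2KO the latter counts were 1 and 3, and in EP2/EP4KO 0 and 1. These lists were chosen with results of these data known, and their counts were not refitted with any library left out.

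**Figure D2:**
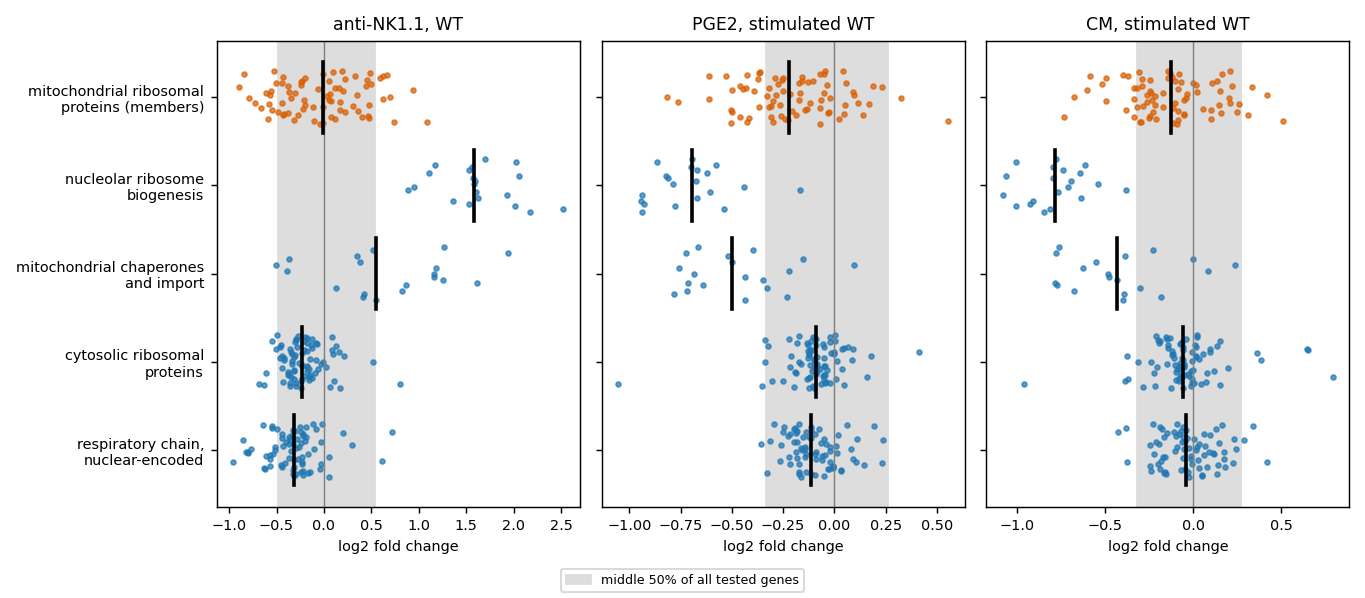
Log2 fold changes (x axis) of every tested gene of 5 lists (y axis) for anti-NK1.1 in untreated WT and for PGE2 and CM in stimulated WT; points are genes, black bars list medians and the grey band the quartile range of all tested genes, the 3 comparisons sharing the untreated stimulated libraries. After anti-NK1.1 the members centre on -0.01 and the nucleolar genes on 1.58.

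PGE2 lowered a few members in stimulated WT cells and raised 0. The 7 called of 76 were Mrpl47, Mrpl55, Mrpl17, Mrpl16, Mrpl32, Mrpl15 and Mrps5, where 15.6% of all tested genes were called, a member share of 9.21%, and the difference was not tested. Of all genes, 9.63% were lower and 6% higher, so the share of members lowered was close to that of all genes. The member median was -0.22 against -0.05 over all genes, and 14 of 76 were positive. Mrpl47 stood at 36.6, 36.0, 41.2 and 59.965 CPM untreated and at 18.9, 19.1, 33.1 and 28.1 with PGE2, and the groups did not overlap (log2 fold change -0.81 ± 0.21, adjusted p = 0.00384). Its exons overlap on the opposite strand with Actl6a (-0.42 ± 0.18) and Ndufb5 (-0.06 ± 0.25), neither called with PGE2. How reads were shared between them was not tested. Mrpl16 went from 73.9, 58.3, 66.8 and 67.0 to 54.9, 39.0, 43.8 and 46.6 (-0.53 ± 0.15, adjusted p = 0.0114), also without overlap.

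The remaining 5 had smaller or more scattered changes. Mrpl15 went from 144.7, 143.8, 176.5 and 194.7 CPM to 132.9, 107.2, 143.1 and 108.1 (-0.43 ± 0.14), just without overlap. Mrpl17, of the large subunit, went from 87.6, 64.01, 150.0 and 171.3 to 66.0, 70.6, 88.6 and 83.5 (-0.61 ± 0.21), and Mrpl55 from 34.3, 21.6, 56.7 and 59.2 to 15.4, 27.4, 31.2 and 26.4 (-0.76 ± 0.26). For both, the untreated replicates 3 and 4 were high, while untreated replicate 2 lay below 3 of the 4 PGE2 libraries for Mrpl55 and below all 4 for Mrpl17. Mrpl32 and Mrps5 fell by 0.46 ± 0.14 and 0.42 ± 0.15 with overlap. The most abundant members were not called: Mrpl33 was at 0.19, Mrpl52 at -0.06, Mrps14 at -0.37 and Mrpl18 at -0.16 on the log2 scale, and Mrpl52 was above 0 under scaling by total counts (0.078) or upper quartile (0.021).

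CM lowered 7 members in stimulated WT, where 15.4% of genes were called, and raised 0: Mrps28, Mrpl47, Mrpl38, Mrpl17, Mrpl3, Mrpl19 and Mrpl15. Of all genes there, 9.22% were lower and 6.2% higher. Mrpl47 was at 28.7, 27.6, 17.5 and 35.1 CPM with CM, below every untreated library (-0.68 ± 0.21, adjusted p = 0.0167 by edgeR). Mrpl38 went from 53.3, 46.0, 74.1 and 47.5 to 25.8, 43.9, 34.2 and 41.5 (-0.60 ± 0.18), also without overlap. Mrps28, a small-subunit protein, went from 22.1, 19.4, 42.1 and 35.045 to 21.5, 13.8, 12.7 and 22.5 (-0.73 ± 0.25), with overlap. The median was -0.13, against -0.04 over all genes. Scaling by total counts alone, which moved the all-gene medians to 0.07 for PGE2 and 0.08 for CM, gave member medians of -0.09 and -0.00064.

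Both comparisons used the same untreated libraries, which were also those of the stimulation comparison, so their values are not independent. Leaving out 1 library at a time left 1 to 13 members called for PGE2 and 2 to 9 for CM, and 0 of the 7 PGE2 or 7 CM calls held in every such fit. Without untreated stimulated replicate 2 PGE2 called 13, and without replicate 4 it called 1. CM against PGE2 in stimulated WT was called for 0 members and 0.00933% of genes, with 2 members at an unadjusted p under 0.05 and 0 by DESeq2. Among other lists, 17 of 20 nucleolar genes were lower with PGE2 and 20 with CM, and of 19 chaperone and import genes 8 and 7 were lower.

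**Figure D3:**
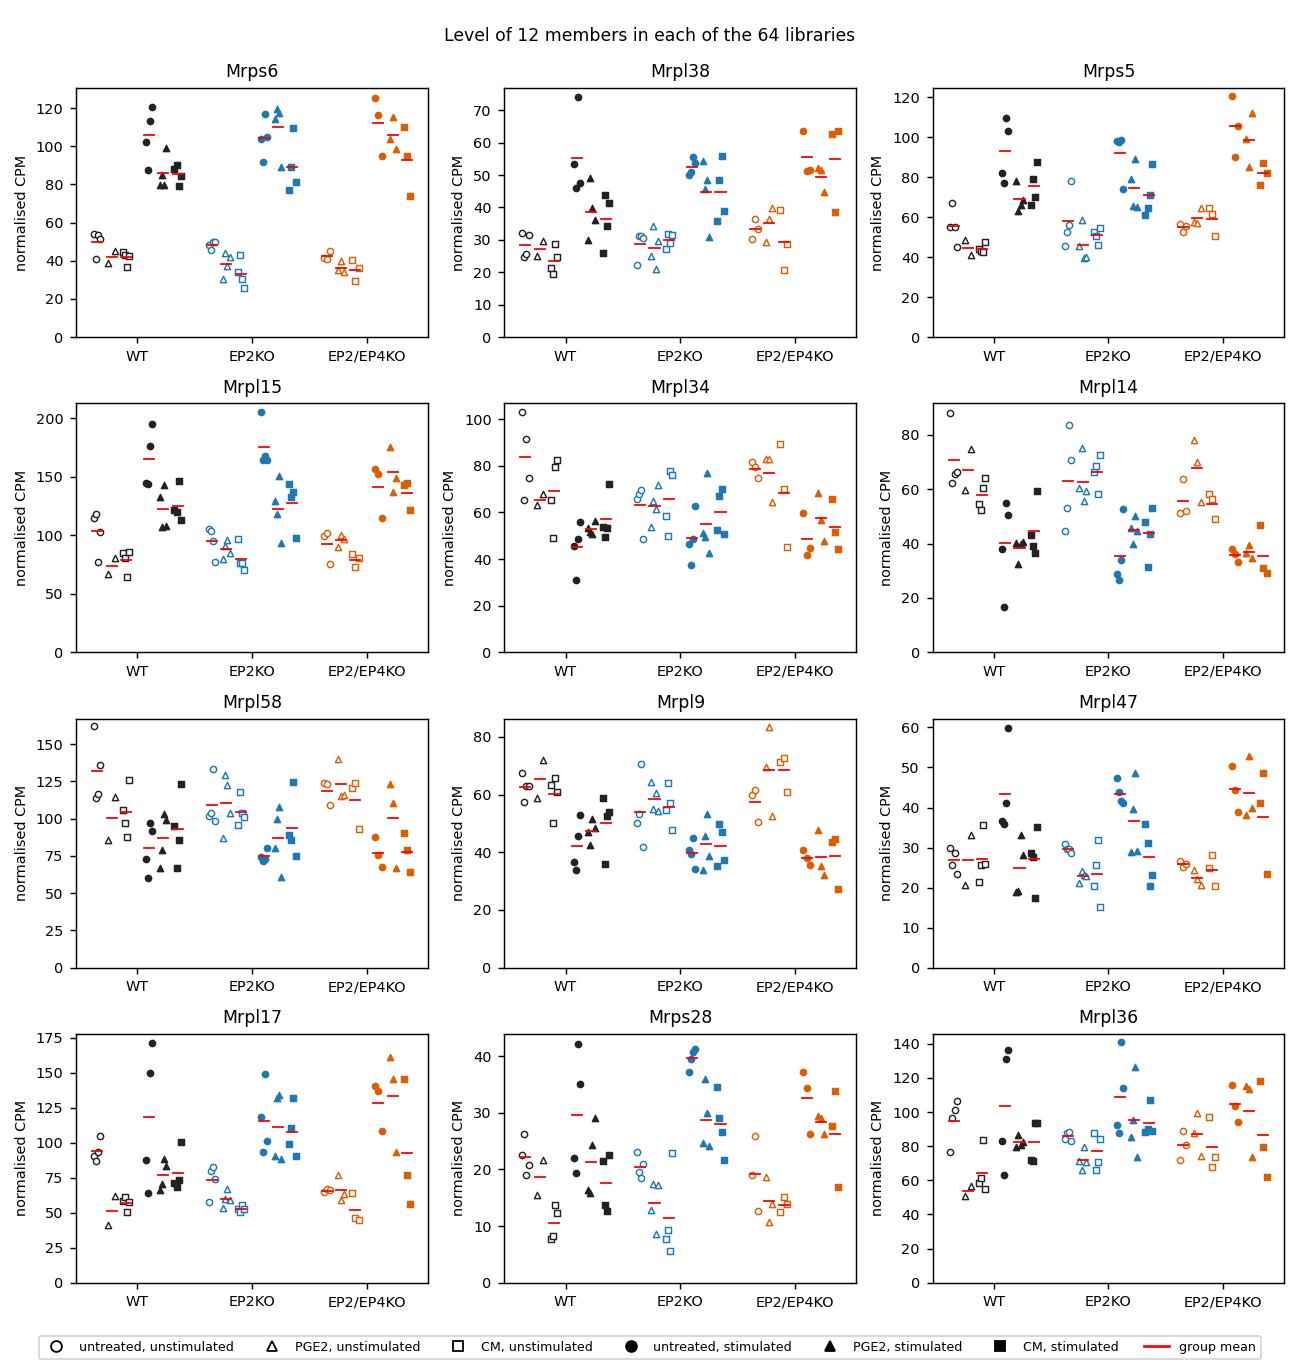
Normalised CPM (y axis, from 0) of 12 members in each of the 64 libraries, by genotype, treatment and stimulation; red lines are group means. Stimulated Mrps6 lies above unstimulated Mrps6 in all 3 genotypes, and the untreated stimulated WT libraries of Mrpl17 run from 64.01 to 171.3 CPM.

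In unstimulated WT cells, CM lowered 6 members, where 8.23% of genes were called, and raised 0. Of all genes there, 3.68% were lower and 4.55% higher. Mrps28 went from 22.5, 26.3, 19.1 and 20.8 CPM to 7.79, 8.20, 13.7 and 12.4, without overlap (-1.10 ± 0.31, adjusted p = 0.0154 by edgeR). Mrps7, which binds the small ribosomal RNA early in assembly, went from 64.7, 53.4, 49.5 and 71.4 to 30.2, 30.7, 45.2 and 36.1 (-0.77 ± 0.20, adjusted p = 0.00806). Mrpl57 went from 128.6, 131.6, 121.0 and 130.4 to 81.8, 85.1, 73.9 and 77.4 (-0.68 ± 0.18), with narrow groups. Mrpl17, Mrpl36 and Mrpl12 fell by 0.71, 0.57 and 0.51.

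With PGE2 in unstimulated WT, 1 member was lower, where 2.97% of genes were called, 1.05% lower and 1.91% higher. The member was Mrpl36, a very small large-subunit protein, at 76.3, 96.5, 101.0 and 106.3 CPM untreated and 51.0 and 56.5 with PGE2 (-0.82 ± 0.24, adjusted p = 0.0379 by edgeR). The call was lost without any 1 of 5 libraries, among them each of the 2 given PGE2. Mrpl57 was at 67.4 and 86.9 CPM with PGE2, below every untreated library, and did not pass the test (it was picked after its values were seen).

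Across both treatments the unstimulated WT members lay below their untreated level more widely than the calls show. The member median was -0.26 with PGE2 and -0.28 with CM, with 7 and 4 of 76 positive, while the median over all genes was 0.01 in both. As a share of counts, the untreated libraries gave the members 0.557% ± 0.034 (SD, n = 4). This share was 0.453% ± 0.070 (n = 2) after PGE2 and 0.438% ± 0.027 (n = 4) after CM, and the CM libraries (0.400% to 0.464%) did not overlap the untreated ones (0.522% to 0.592%). Over the same groups, counts from mitochondrial DNA took 8.89%, 10.7% and 11.1%, cytosolic ribosomal proteins took 13.1%, 11.6% and 11.8%, and library totals averaged 1197294, 1155003 and 933828. The part of these in the lower member levels was not tested, and fewer transcripts per cell cannot be told apart from a change in the mix of cells.

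**Figure D4:**
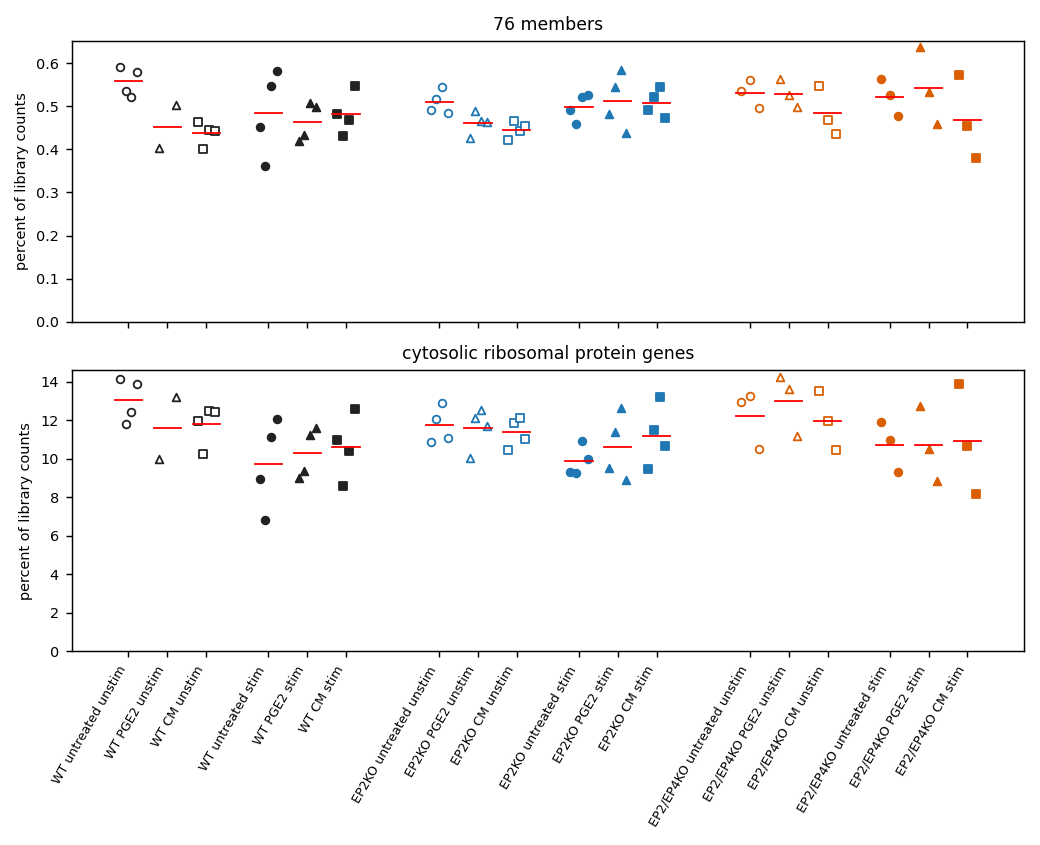
Percent of each library's counts (y axes, from 0) taken by the 76 members and by the cytosolic ribosomal protein genes in the 18 groups; red lines are group means. Unstimulated WT members lie at 0.522% to 0.592% untreated and at 0.400% to 0.464% with CM, and untreated stimulated WT spreads from 0.361% to 0.581%.

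In unstimulated EP2KO cells the members lay below their untreated level too. The medians were -0.11 with PGE2 and -0.18 with CM, against 0.01 over all genes in both, and 21 and 19 of 76 were positive. The members took 0.484% to 0.544% of counts untreated and 0.422% to 0.465% with CM, without overlap, while counts from mitochondrial DNA averaged 10.2% and 11.5%, whose part was not tested. Few members were called in EP2KO. PGE2 gave 0 members without stimulation, where 3.15% of genes were called, with 3 members at an unadjusted p under 0.05 and 0 by DESeq2. With stimulation it lowered Mrpl15 alone among the members, where 7.29% of genes were called: 205.5, 163.9, 168.1 and 164.0 CPM untreated against 129.4, 118.3, 150.4 and 93.0 (-0.51 ± 0.14, adjusted p = 0.0129), without overlap. CM lowered Mrpl16 and Mrps6 in unstimulated cells (-0.57 ± 0.17 and -0.52 ± 0.16), where 4.37% of genes were called. In stimulated cells CM lowered Mrpl47 and Mrpl15 (-0.64 ± 0.20 and -0.46 ± 0.14), where 10.4% of genes were called. The share of all EP2KO genes called lower was 3.9% with PGE2 and 5.91% with CM in stimulated cells. It was 2.14% with CM in unstimulated cells. Mrpl15 and Mrpl47 were thus lower with CM in stimulated cells of both WT and EP2KO, which share no library. These calls did not hold in every fit that left out 1 library. In WT the call for Mrpl15 held in 3 of 8 such fits and that for Mrpl47 in 6 of 8. In EP2KO they held in 4 of 8 and 2 of 8.

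The 12 WT risers can be followed in EP2KO, whose libraries had no part in choosing them. Their median log2 fold change in stimulated EP2KO was -0.23 with PGE2 and -0.26 with CM, with 10 and 12 of the 12 negative, while the 13 WT fallers had medians of 0.02 and 0.16. In unstimulated EP2KO the medians of the 12 were -0.27 with PGE2 (12 negative) and -0.23 with CM (11 negative). Over all 76 members in stimulated EP2KO the medians were -0.03 with PGE2 and -0.12 with CM. Scaling by total counts alone turned the former to 0.06 and left the latter at -0.0083, with all-gene medians of 0.08 in both. In stimulated EP2/EP4KO the 12 had medians of -0.02 with PGE2 and -0.19 with CM.

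In EP2/EP4KO cells 0 members were called with either treatment. For PGE2, 0% of genes were called without stimulation and 0% with it, and 0 members had an unadjusted p under 0.05 in either state. For CM, 0% of genes were called without stimulation and 0.0746% with it, and 3 and 4 members had an unadjusted p under 0.05. DESeq2 called 0 members in all 4. The member medians with CM still lay below those of all genes. They were -0.10 without stimulation and -0.17 with it, against 0.0004 and 0.0013 over all genes. With PGE2 the member medians were -0.02 and 0.05, against -0.0004 and 0.0059. Whether the members differed from all genes was not tested. Mrpl15 stood at 156.9, 152.5 and 114.7 CPM untreated, 175.2, 137.3 and 149.2 with PGE2 and 142.6, 144.9 and 121.7 with CM in stimulated cells, with overlap throughout. Mrpl47 stood at 50.3, 44.4 and 39.0 CPM untreated, 38.2, 53.0 and 39.8 with PGE2 and 41.2, 48.6 and 23.4 with CM. The groups of 3 overlapped here too.

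**Figure D5:**
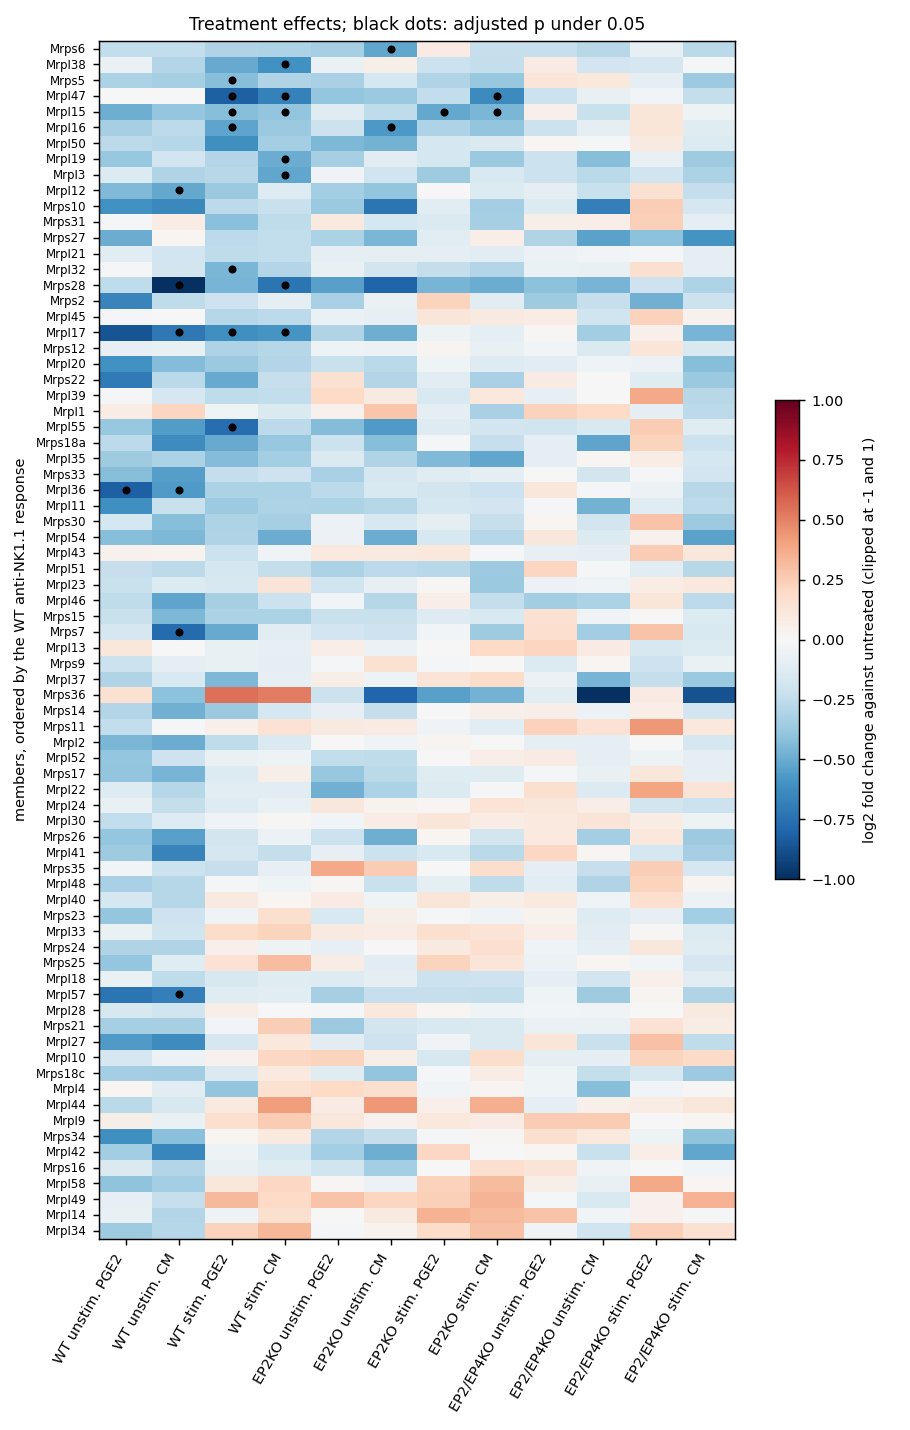
Log2 fold change against untreated cells (colour, clipped at -1 and 1) of the 76 members (rows, ordered by the WT anti-NK1.1 response) in 12 treatment comparisons (columns); black dots mark an adjusted p under 0.05. All 26 calls are decreases, 21 of them in WT, 5 in EP2KO and 0 in EP2/EP4KO, while calls over all tested genes in WT and EP2KO went in both directions. Of all genes in stimulated WT, 9.63% were lower with PGE2 and 9.22% with CM. In EP2/EP4KO at most 0.0746% of all genes were called in any of these comparisons.

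Whether the treatment effects differed between genotypes was tested directly in stimulated cells. For PGE2, EP2KO minus WT gave 0 members and 0% of genes, with 2 members at an unadjusted p under 0.05, and EP2/EP4KO minus EP2KO gave 0 members where 0.951% of genes were called, with 1 member at an unadjusted p under 0.05. That member was Mrpl15, at 0.63 ± 0.21 (adjusted p = 0.198 by edgeR). For CM the same differences gave 0 members where 0% and 0.345% of genes were called, with 0 members at an unadjusted p under 0.05 in both. The interaction of treatment and stimulation in WT gave 0 members where 1.31% of genes were called for PGE2 and 2.19% for CM, with 3 and 6 members at an unadjusted p under 0.05. DESeq2 called 0 members in each of these 6 tests. The differences between genotypes were not tested in unstimulated cells.

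Over all 12 treatment comparisons 16 members were lower at least once, 0 were higher, and the calls numbered 26. Mrpl15 was lower in 4 comparisons and Mrpl17 and Mrpl47 in 3 each. In the 4 WT comparisons, 47 of the 76 members had negative log2 fold changes throughout, where pairs of comparisons share their untreated libraries. These tallies were not made over all tested genes. In stimulated WT, 7 of the 76 members were lower with each treatment, against 9.63% of all genes with PGE2 and 9.22% with CM.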

How the data were processed

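Bulk 3' mRNA libraries of cultured mouse spleen NK cells were counted per gene by the authors, and the deposited table holds raw counts for 36273 genes in 64 libraries. The submitters' processing notes name GRCm38 (mm10) as build and DESeq2 as a tool. Per the labels' protocols, tags carried molecular identifiers. The aligner, the use of strand and any collapsing of identifiers: not given in the sources used here. Columns were matched to samples by their labels, and 0 columns were left without a sample. Library totals ran from 753973 to 1693750 counts.

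Genes with too few counts were dropped by edgeR's filterByExpr (minimum count 10), which left 10723 genes. Counts were scaled by TMM and fitted with 1 mean per group over all 64 libraries by edgeR 4.0.16's robust quasi-likelihood fit (limma 3.58.1, R 4.3.3), with Benjamini-Hochberg adjustment over all genes tested and a threshold of 0.05. Normalised CPM are counts in 1e+06 of the TMM-scaled library. Alternatives were DESeq2 1.42.0, other scalings, no filter, a fit on the compared genotypes alone, a replicate block, and leaving out each library. The procedure was tested on simulated counts for PGE2 against untreated in stimulated WT, with 50 genes changed at each size. It recovered 4% of changes of 1.25 fold, 28% of 1.5 fold, 70% of 2 fold and 96% of 4 fold. There were 6 false calls among the unchanged genes. Small changes were thus mostly missed, and a count of 0 members called does not show that none changed.

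Named by rule were up to 12 called members of largest change for stimulation in WT and for each treatment in stimulated WT, up to 6 elsewhere, the 4 most abundant members outside the calls, the 5 most and 5 least abundant, 10 members fixed by name for their levels (such as Mrpl44, Mrpl45, Mrps12 and Mrps18c), and up to 3 called genes of each other list. Other members were named after their values were seen, to complete a group of calls or a count. The members and gene lists were chosen with earlier results of these data known. Promoters came from RefSeq (GRCm38.p6) and gene positions from GENCODE M21.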

Additional observations from a re-analysis of the deposited data

Results flagged for a closer look

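Values of the named members were searched for a single library far from the other 3 of its group (gap to the nearest library over the whole range of the group, against Dixon's critical value). Of 104 groups of values tested 6 passed, where chance gives about 5%. Mrpl14 in untreated unstimulated WT had replicate 1 at 87.9 CPM and the others at 62.2 to 66.5 (0.835). Mrpl15 in untreated stimulated EP2KO had replicate 1 at 205.5 against 163.9 to 168.1 (0.899). Mrpl38 in untreated unstimulated EP2KO had replicate 1 at 22.2 against 30.5 to 31.3 (0.914). Mrps5 in untreated stimulated EP2KO had replicate 4 at 73.8 against 97.7 to 98.8 (0.959). In stimulated WT with CM, replicate 4 was the high library for Mrpl17, at 100.9 against 68.2 to 73.1 (0.851), and for Mrpl33, at 355.0 against 217.7 to 240.1 (0.837).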

How the results depend on the processing

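Every called member kept its sign under all alternatives run, while many treatment calls were lost. Scaling by total counts alone gave 1 member called for PGE2 and 1 for CM in stimulated WT, 11 for CM in unstimulated WT, 3 for PGE2 there, 0 for each treatment in stimulated EP2KO and 1 for the interaction of CM and stimulation. Upper quartile scaling gave 3 for PGE2 and 3 for CM in stimulated WT and 1 for CM in unstimulated EP2KO. No filter gave 3 and 1 in stimulated WT, 2 for PGE2 in unstimulated WT, 0 for PGE2 and for CM in stimulated EP2KO, 0 for CM in unstimulated EP2KO and 13 for stimulation in EP2/EP4KO. Fitting the compared genotypes alone gave 2 for PGE2 and 3 for CM in stimulated WT. RLE size factors gave 2 for PGE2 in unstimulated WT. DESeq2 gave 3 there and 1 for CM in unstimulated EP2KO. The cause was not tested.

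Replicate numbers were not taken to pair the libraries: 42 of 50 same-numbered pairs in WT, 53 of 60 in EP2KO and 39 of 45 in EP2/EP4KO correlated above 0.1, and so not every pair. Of differently numbered pairs, 43 of 150, 23 of 180 and 15 of 90 did, with median r of -0.13, -0.11 and -0.19 against 0.42, 0.32 and 0.43. Same-numbered libraries thus tended to vary together, and the counts in the Results leave this out of account. With a replicate block, stimulation in WT called 38 members in place of 25, PGE2 called 12 in stimulated and 3 in unstimulated WT, and CM called 18 in unstimulated WT in place of 6. In EP2KO the block gave 2 for PGE2 and 5 for CM in stimulated cells and 4 for CM in unstimulated cells, and the EP2/EP4KO minus EP2KO difference for PGE2 gave 1.

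Leaving out 1 library of the stimulation comparison gave counts between 20 and 30 for WT, between 13 and 18 for EP2KO, and between 12 and 18 for EP2/EP4KO (12 without stimulated and 13 without unstimulated replicate 1). PGE2 in stimulated WT gave 1 to 13: 2 and 3 without PGE2 replicates 2 and 4, and 13, 3 and 1 without untreated replicates 2, 3 and 4. CM there gave 2 to 9: 2, 2 and 4 without CM replicates 1, 2 and 3, and 2 and 3 without untreated replicates 3 and 4. CM in unstimulated WT gave 3 to 6, with 3 without replicate 4 of either group, and PGE2 there 0 to 1. In EP2KO, CM gave 0 to 4 with stimulation and 0 to 2 without it, and PGE2 0 to 1 with stimulation. The WT interaction of CM and stimulation gave 0 to 1.

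Some uncalled abundant members changed sign. For CM in stimulated WT, Mrpl18 was at 0.0047 under total counts and -0.21 to 0.028 without 1 library, Mrpl52 at 0.080 under total counts, 0.014 under upper quartile and -0.18 to 0.099 without 1 library, and Mrps14 at -0.32 to 0.024. For PGE2, Mrpl52 was at 0.078 and 0.021 under those scalings and -0.19 to 0.090 without 1 library. For stimulation in WT, Mrps14 was at -0.33 to 0.0083.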
